A study of Mus musculus with 24 samples.

Results

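The experiment described here is the loss of Smarcc2 in resting cortical neurons, compared in 5 of the 24 RNA-seq libraries of the series. Libraries were chosen by title: 3 carried a Smarcc2 knockout together with a vector (KO) and 2 carried a non-targeting guide RNA (NT), all of them at 18 days in vitro (DIV18) and unstimulated. The neurons were primary cultures from the cortex of mouse embryos at embryonic day 16.5, in which the cortex of 1 embryo counted as 1 biological replicate per the labels' protocols. All 5 cultures, NT and KO alike, were silenced overnight with 1 µM tetrodotoxin, a blocker of sodium channels, and 100 µM D-AP5, a blocker of NMDA receptors, and received no KCl. The NT titles name no vector, so knockout and vector cannot be told apart in this comparison. The guide sequences, the vector and the share of cells that carried an edit are not given in the sources used here. Cultures of the same knockout that received wild-type Smarcc2 (2 libraries, resting), and NT and KO cultures depolarized with 50 mM KCl for 30 min (2 and 3 libraries), are set beside the result where they bear on it.

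Smarcc2 encodes BAF170, a scaffold subunit of the BAF (SWI/SNF) complexes, which use ATP to move nucleosomes and so open or close regulatory DNA. BAF170 pairs with itself or with its relative BAF155, the product of Smarcc1, to form the core on which the other subunits assemble. In the cortex the subunit makeup of these complexes changes as progenitors become neurons, and BAF170 has roles in both. A cortical culture of this kind holds mostly postmitotic neurons, with some astrocytes, oligodendrocyte precursors and dividing progenitors, so neuronal genes are described apart from glial and cell-cycle genes.

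Library totals ran from 15882404 to 23835270 estimated counts in the 5 libraries, and levels are given as CPM (counts scaled to library size) after TMM scaling. The cultures matched their label. Per transcript length and depth, Map2, Snap25 and Slc17a7, which mark neurons, stood at 189 to 226, 382 to 468 and 427 to 552 TPM. The astrocyte gene Gfap stood at 11.8 to 62.5 TPM and the myelin gene Mbp at 20.4 to 27.6 TPM. The oligodendrocyte lineage factor Sox10, itself lower in KO, stood at 0 to 2.79 TPM. Two-sided quasi-likelihood tests of edgeR, fitted over all 20 DIV18 libraries, gave every adjusted p, and the verbs rose and fell, like the word called, are used for adjusted p below 0.05. KO library 3 stood apart from the others of its group. The 2 NT libraries differed from each other, and with 2 it cannot be told which departs. NT library 2 had 1.39 times the summed level of hypoxia-response genes of NT library 1 and 1.23 times that of replication genes. KO library 3 had the lowest summed level of astrocyte markers and the highest share of mitochondrial counts (8.16%, against 4.2% to 5.81% in the other 4). The 2 NT and 3 KO libraries did not overlap in 34.4% of all genes tested (7193) and in 1234 of the 1236 genes called, so a statement that groups do not overlap describes a gene's values and adds nothing to its call. Without NT library 2 only 100 genes were called, so each group of genes is given with the number of its calls that passed without each library.

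Smarcc2 (ENSMUSG00000025369.15, chr10:128459248-128490482, plus strand) stood at 265 and 237 CPM in NT and 47.1, 49.8 and 64.1 CPM in KO, and the groups did not overlap (log2 fold change −2.23 ± 0.14 SE, adjusted p = 7.34e-08). The KO mean was 0.214 times the NT mean, so transcripts of the gene remained. With offsets for transcript length the log2 fold change was −1.27. The protein-coding transcript with the most counts in NT stood at 16.5% of its NT level in KO and the next at 21.2%, from counts summed over the libraries of each group. Of the other 4 forms, a protein-coding one stood at 15.9% of its NT level, and 3 with few counts in NT were higher in KO: a protein-coding one at 156%, a processed transcript at 315% and a retained-intron form at 1074% of NT. Smarcc1, its relative, stood at 88.5 and 102 CPM in NT and 94.5, 90.7 and 89.0 CPM in KO and was not called (log2 fold change −0.06, adjusted p = 0.755). Among the 29 BAF-type subunit genes tested, the target included, 3 rose (10.3%) and 2 fell (6.9%). Of all genes tested, 2.13% rose and 3.77% fell. Arid1a, the ARID subunit of canonical BAF complexes, stood at 186 and 175 CPM in NT and 271, 250.3 and 196 CPM in KO (log2 fold change 0.41 ± 0.10 SE, adjusted p = 0.0197). Smarce1 (BAF57) and Smarcd3 (BAF60C), both core-module subunits, rose by 0.45 and 0.52 on the log2 scale (adjusted p = 0.00897 and 0.0486). Brd9, the bromodomain subunit of the non-canonical complex, had a log2 fold change of −0.36, adjusted p = 0.0469. The ATPase genes Smarca4 and Smarca2 were not called (log2 fold changes 0.12 and −0.30, adjusted p = 0.451 and 0.107). Of 24 genes of the Polycomb repressive complexes, which oppose BAF at chromatin, 2 rose (8.33%) and 0 fell. They were Jarid2 (0.37, adjusted p = 0.0148) and Mtf2 (0.36, adjusted p = 0.043), both accessory subunits of PRC2. Of these 7 calls, 3 passed without NT library 1, 1 without NT library 2, and 2, 3 and 5 without KO libraries 1, 2 and 3.

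**Figure D1:**
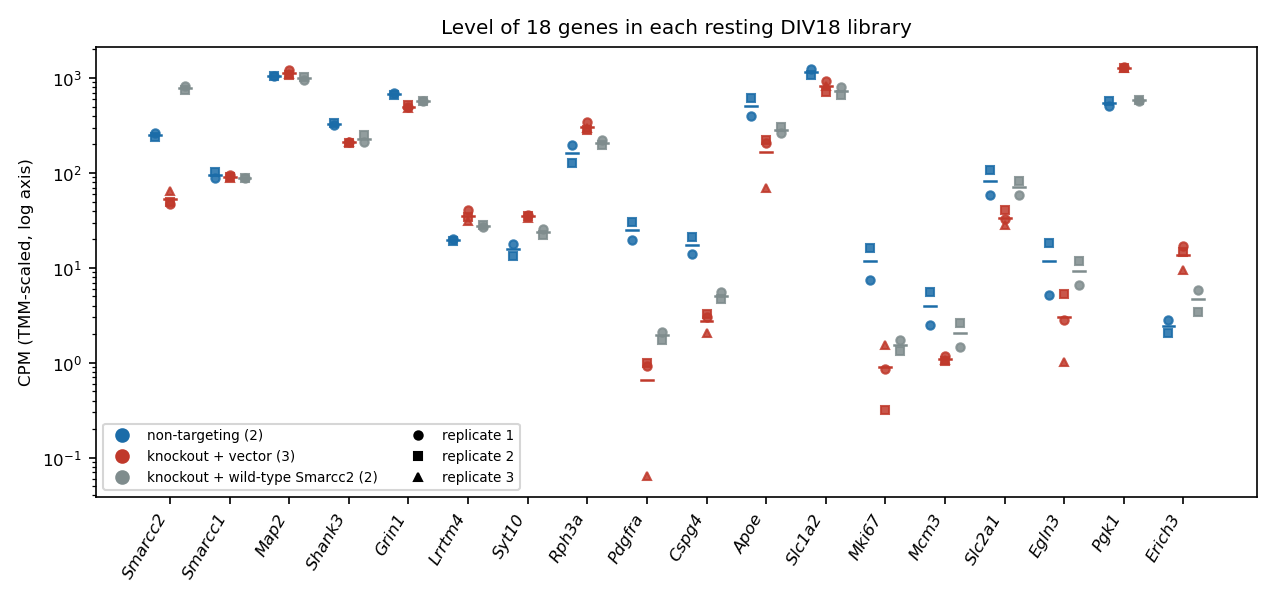
Level of 18 genes (CPM, log axis) in each resting DIV18 library, with NT in blue, KO in red and knockout with wild-type Smarcc2 in grey, the shape giving the replicate number and the short bar the group mean. Smarcc2 lies between 237 and 265 CPM in NT and between 47.1 and 64.1 CPM in KO, Map2 is level across groups, Pdgfra and Mki67 are lower in each KO library, and Pgk1 is higher in each KO library than in the NT and addback libraries.

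Over all 20940 genes tested, 1236 were called, which is 5.9% of them. Of these, 446 rose (2.13% of genes tested) and 790 fell (3.77%), and the median log2 fold change of all genes tested was 0.02. Changes were mostly small. A fold change of at least 2 was found in 125 of the genes that rose and 235 of those that fell, and the median log2 fold change was 0.64 among the former and −0.67 among the latter. The split between directions moved with the scaling: with libraries scaled to pan-neuronal genes, 53.6% of 990 calls were higher, against 36.1% of the 1236. With a library left out, the number was 802 without NT library 1, 100 without NT library 2, and 724, 968 and 1031 without KO libraries 1, 2 and 3. In 84 genes, 0.401% of those tested, the call passed with all libraries and in each of these 5 fits (27 higher and 57 lower).

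**Figure D2:**
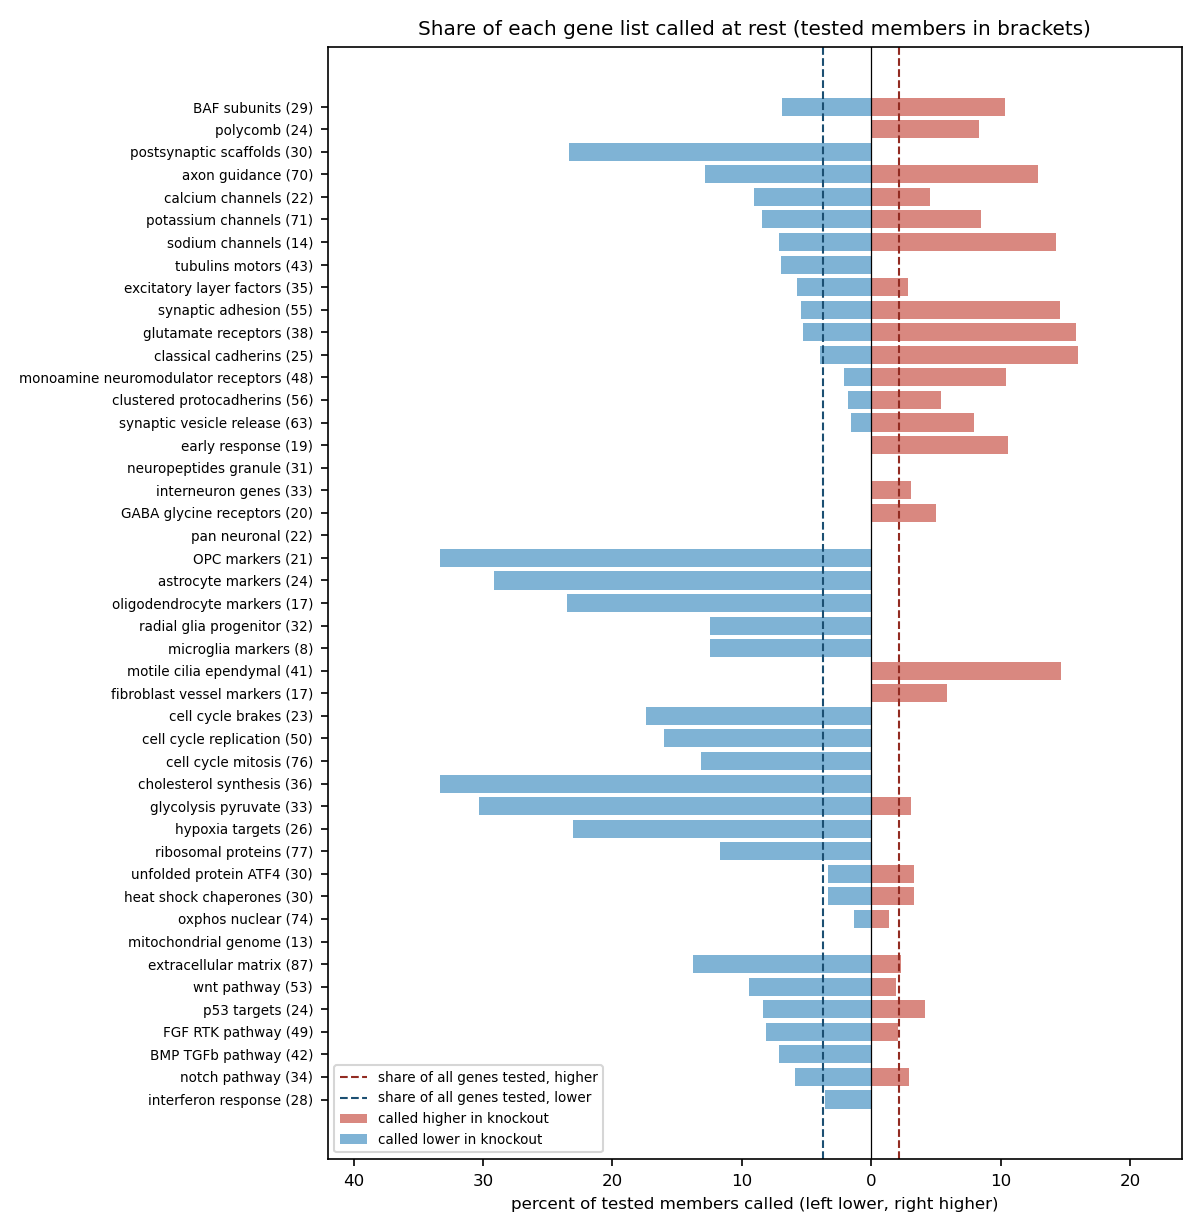
Share of the tested members of each gene list that was called lower (bars to the left) or higher (bars to the right) in KO than in NT at rest, in percent, with the number of tested members in brackets and dashed lines at the share of all genes tested (3.77% lower, 2.13% higher). Bars to the left exceed 20% for oligodendrocyte precursor, astrocyte, oligodendrocyte, cholesterol, glycolysis, hypoxia and postsynaptic scaffold lists, and the pan-neuronal list has no bar.

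Genes that mark neurons in general did not pass the test: 0 of 22 pan-neuronal genes were called, and their median log2 fold change was −0.01 (0.02 with pan-neuronal scaling and 0.01 with GC offsets). Rbfox3, Map2 and Tubb3 had log2 fold changes of −0.18, 0.11 and 0.22 (adjusted p = 0.255, 0.448 and 0.445). The summed level of the list was 8653 and 8322 CPM in NT and 8897, 7904 and 8144 CPM in KO, and the groups overlapped. Over the 680 distinct genes of the neuronal lists, 54 rose (7.94%) and 39 fell (5.74%), with a median log2 fold change of 0.06. Without NT library 2 these counts were 2 and 5. The summed level of astrocyte markers was lower in each KO library than in NT, as given with the glial genes, and its part in the neuronal calls was not tested.

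The postsynaptic scaffold list moved in a single direction among its calls. Of 30 tested genes that anchor receptors and kinases beneath excitatory and inhibitory synapses, 0 rose and 7 fell (23.3%), with a median log2 fold change of −0.14. With GC offsets 6 fell, with a median of −0.08, and with pan-neuronal scaling 5 fell, with a median of −0.11. Shank3 (ENSMUSG00000022623.16, chr15:89499623-89560261, plus strand), a master scaffold of the postsynaptic density, stood at 317 and 338 CPM in NT and 210.0, 209 and 209.9 CPM in KO (log2 fold change −0.65 ± 0.08 SE, adjusted p = 0.000216). The groups did not overlap, and the 3 KO libraries lay within 1 CPM of each other. Homer2, Baiap2, Camk2d, Camk2g, Agap2 and Ppp1r9b fell by 0.36 to 0.41 on the log2 scale. They encode a Homer adaptor, an actin-binding partner of Shank, a pair of CaMKII subunits, an Arf GTPase-activating protein and the spine protein spinophilin. Dlg1, Dlg2 and Dlg3, of the PSD-95 family, were not called (log2 fold changes −0.24, −0.06 and 0.21).

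Of 38 glutamate receptor genes tested 6 rose (15.8%) and 2 fell (5.26%), with a median log2 fold change of 0.05. Grin1, the obligatory subunit of NMDA receptors, stood at 694 and 659 CPM in NT and 496, 521 and 484 CPM in KO (log2 fold change −0.44 ± 0.07 SE, adjusted p = 0.00164). The groups did not overlap. Grin2c, a further NMDA receptor subunit expressed at a low level here, fell from 3.74 and 4.41 CPM in NT to 2.05, 1.11 and 1.66 CPM in KO (log2 fold change −1.34 ± 0.31 SE, adjusted p = 0.0149). The genes that rose were Grik2 of the kainate receptors (0.64), the metabotropic receptor genes Grm2 (0.59) and Grm7 (0.56), the AMPA receptor subunit gene Gria4 (0.36) and the auxiliary subunit genes Neto2 (0.47) and Shisa9 (0.38), with adjusted p from 0.00817 to 0.0393. Gria1, Gria2 and Gria3 were not called (log2 fold changes 0.41, 0.41 and −0.05). Among 20 GABA-A and glycine receptor genes only Gabrg3, which encodes the gamma-3 subunit, was called, at 42.6 and 28.0 CPM in NT and 69.1, 58.4 and 56.8 CPM in KO (log2 fold change 0.80 ± 0.15 SE, adjusted p = 0.00417), while Gabra2 and Gabra3 had log2 fold changes of 0.11 and 0.17. Of the 16 calls in receptor and scaffold genes, 13 passed without NT library 1, 3 without NT library 2, and 9, 12 and 13 without KO libraries 1, 2 and 3.

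Ion channel genes changed in both directions. The sodium leak channel gene Nalcn and the sodium channel gene Scn3a rose by 0.55 and 0.44 on the log2 scale (adjusted p = 0.0161 and 0.0469), and Scn1a and Scn2a were not called (0.22 and 0.20). Of 14 sodium channel genes tested 2 rose (14.3%) and 1 fell (7.14%). Of 71 potassium and HCN channel genes, 6 rose and 6 fell (8.45% each). The 4 largest rises were in Kcng1, Kcnk9, Kcnf1 and Kcns2. Kcng1 and Kcns2 encode silent Kv subunits, as does Kcnf1, and Kcnk9 encodes the leak channel TASK-3. Kcnf1 stood at 125 and 109.5 CPM in NT and 187, 195 and 173 CPM in KO (log2 fold change 0.66 ± 0.10 SE, adjusted p = 0.00111) and Kcnk9 at 87.7 and 63.2 CPM in NT and 165, 136 and 126 CPM in KO (log2 fold change 0.91 ± 0.18 SE, adjusted p = 0.00663). In both genes each KO library exceeded each NT library. Large falls were in Kcnab3 (−0.78), Kcnh2 (−0.55) and Hcn2. Hcn2, a subunit of the channels that carry the hyperpolarization-activated current, stood at 114 and 112 CPM in NT and 81.5, 78.2 and 79.5 CPM in KO (log2 fold change −0.50 ± 0.08 SE, adjusted p = 0.00142). Kcna1, Kcna2 and Kcna3 were not called (log2 fold changes 0.12, −0.09 and 0.07). Of 22 calcium channel genes, Cacna2d3 rose (0.52, adjusted p = 0.0158, 4.55% of the list), and Cacna1g and Cacnb1 fell (−0.34 and −0.25, 9.09%). Of the 12 channel calls followed here, 9 passed without NT library 1, 1 without NT library 2, and 7, 10 and 9 without KO libraries 1, 2 and 3.

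Genes of vesicle release, neuronal subtype and neuromodulation gave scattered calls. Of 63 vesicle and release genes, 5 rose (7.94%) and 1 fell (1.59%). Syt10, a synaptotagmin, a calcium sensor of vesicle fusion, stood at 18.1 and 13.4 CPM in NT and 36.4, 35.2 and 33.5 CPM in KO (log2 fold change 1.15 ± 0.16 SE, adjusted p = 0.000682), and Rph3a, the Rab3 effector rabphilin, at 197 and 128 CPM in NT and 344, 281 and 299.8 CPM in KO (log2 fold change 0.92 ± 0.18 SE, adjusted p = 0.00541). All 3 KO libraries were above both NT libraries in each. Rab3b (1.03), Slc17a6, the vesicular transporter VGLUT2 (0.84), and Syt3 (0.38) also rose. Bsn, the active-zone scaffold Bassoon, fell, at 969 and 1204 CPM in NT and 760.0, 777 and 551 CPM in KO (log2 fold change −0.64 ± 0.15 SE, adjusted p = 0.0175), and the synapsin genes Syn1, Syn2 and Syn3 were not called (−0.45, −0.09 and 0.16).

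Among 35 transcription factors of excitatory neuron layers, Tbr1, a determinant of deep-layer neurons, rose from 81.0 and 57.2 CPM in NT to 143, 99.4 and 129.9 CPM in KO (log2 fold change 0.84 ± 0.18 SE, adjusted p = 0.00905). Nfia, which neurons share with astrocytes, and Pou3f1 fell (−0.75 and −0.41), and Cux1, Cux2 and Satb1 were not called. Of these 35 factors 2.86% rose and 5.71% fell, near the 2.13% and 3.77% of all genes tested. Of 33 interneuron genes tested only Calb1, the calcium buffer calbindin, was called (log2 fold change 0.96, adjusted p = 0.0167, 3.03% of the list). Gad1, Gad2 and Slc32a1, which make and package GABA, were not called and overlapped between the groups, with Gad1 at 97.4 and 72.1 CPM in NT and 139, 94.4 and 62.1 CPM in KO. Of 31 neuropeptide and granule genes 0 were called. Of 19 early-response genes 2 rose (10.5%) and 0 fell. Those that rose were Fosl2 (0.62, adjusted p = 0.00593) and Nr4a3 (0.77, adjusted p = 0.00313), while Fos and Fosb had log2 fold changes of −0.23 and −0.74 (adjusted p = 0.876 and 0.306). Of 48 receptors for monoamines, neuropeptides and cannabinoids 5 rose (10.4%) and 1 fell (2.08%). Those that rose were Npy2r (2.26), Hrh1 (0.95), Sstr2 (0.70), Oprl1 (0.65) and Cnr1 (0.61), and Hrh2 fell (−1.14). Npy2r was low, at 0.340 and 0.642 CPM in NT and 2.64, 2.95 and 1.46 CPM in KO. Of 43 tubulin and motor genes 0 rose, and Tuba8, Tubb6 and Map4 (6.98%) fell by 0.94, 0.75 and 0.33 on the log2 scale. Of the 21 calls from vesicle genes to tubulins, 15 passed without NT library 1, 1 without NT library 2, and 12, 16 and 18 without KO libraries 1, 2 and 3.

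Synaptic adhesion genes rose in 8 and fell in 3 of 55 tested (14.5% and 5.45%). Lrrtm4, a postsynaptic organizer that binds heparan sulfate proteoglycans and neurexins, stood at 20.2 and 19.3 CPM in NT and 40.5, 34.4 and 30.8 CPM in KO (log2 fold change 0.84 ± 0.12 SE, adjusted p = 0.000545), and the groups were apart. The other large rises were in Cbln4 (1.22), Cntn6 (0.79) and Cbln2 (0.77), of which the cerebellins are secreted partners of neurexins and Cntn6 is a contactin. The falls were in Cadm3 (−0.40), Ptprf (−0.38) and Nlgn2 (−0.27), the last of them the neuroligin of inhibitory synapses. The neurexin genes Nrxn2 and Nrxn3 were not called (−0.10 and −0.23). Of 25 classical cadherins and related protocadherins Cdh9 (0.80), Pcdh20 (0.78), Pcdh1 (0.52) and Cdh18 (0.51) rose and Cdh20 fell (−0.59). These were 16% and 4% of the list, against 2.13% and 3.77% of all genes tested.

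Axon guidance genes were called in equal numbers of each direction, 9 higher and 9 lower of 70 (12.9% each). The balance moved with the setting, to 8 higher and 5 lower with GC offsets and 9 and 4 with pan-neuronal scaling. The 4 largest rises were in Ntng2, Unc5c, Sema5a and Epha3. Ntng2, a membrane-anchored netrin relative, stood at 29.9 and 27.0 CPM in NT and 75.8, 60.7 and 52.3 CPM in KO (log2 fold change 1.15 ± 0.18 SE, adjusted p = 0.00142), and the netrin receptor gene Unc5c at 30.7 and 24.2 CPM in NT and 56.6, 51.8 and 49.9 CPM in KO (log2 fold change 0.94 ± 0.16 SE, adjusted p = 0.00221). Each KO value exceeded both NT values in these genes. The 4 largest falls were in Sema7a, Slit3, Sema4b and Plxnd1. Sema7a, a membrane-anchored semaphorin, stood at 138 and 172 CPM in NT and 65.8, 75.3 and 101 CPM in KO (log2 fold change −0.95 ± 0.15 SE, adjusted p = 0.00181), and the Slit ligand gene Slit3 at 44.5 and 58.2 CPM in NT and 30.6, 27.7 and 25.9 CPM in KO (log2 fold change −0.87 ± 0.15 SE, adjusted p = 0.00292). For Plxnd1, a plexin receptor, the NT libraries themselves differed widely, at 123 and 218 CPM in NT and 111, 107 and 87.5 CPM in KO (adjusted p = 0.0363). Of the 20 named adhesion and guidance calls, 11 passed without NT library 1, 1 without NT library 2, and 10, 16 and 13 without KO libraries 1, 2 and 3.

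Every call among glial markers was lower. Over the distinct members of the astrocyte, oligodendrocyte precursor, oligodendrocyte and microglia lists, 0 rose and 19 of 70 fell (27.1%), with a median log2 fold change of −0.69. In bulk RNA, fewer cells of a type and less RNA per cell cannot be told apart. The deepest falls were in oligodendrocyte precursor genes, of which 7 of 21 fell (33.3%, list median −1.15). Pdgfra (ENSMUSG00000029231.15, chr5:75152292-75198215, plus strand), the receptor that marks these precursors, stood at 19.7 and 30.3 CPM in NT and 0.916, 1.00 and 0.064 CPM in KO (log2 fold change −5.18 ± 0.76 SE, adjusted p = 0.000953). Cspg4, the NG2 proteoglycan of the same cells, stood at 13.9 and 21.3 CPM in NT and 3.02, 3.27 and 2.04 CPM in KO (log2 fold change −2.65 ± 0.37 SE, adjusted p = 0.000557). Sox10, the lineage's transcription factor, had 248 counts in the 2 NT libraries together and 0 in the 3 KO libraries. With a floor of 3 counts over the KO group it was at least 97.1-fold lower in KO, a bound that covers counting error only (adjusted p = 0.000475).

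Gpr17, a receptor of committed precursors, had 111 counts in NT and 0 in KO, and was at least 43.4-fold lower (adjusted p = 0.00831). Olig1, another lineage factor, fell from 23.2 and 36.0 CPM in NT to 10.3, 4.06 and 2.23 CPM in KO (log2 fold change −2.40 ± 0.51 SE, adjusted p = 0.0101), and Bcan, the matrix proteoglycan brevican, from 51.7 and 56.3 CPM in NT and 26.9, 24.2 and 21.2 CPM in KO (log2 fold change −1.16 ± 0.14 SE, adjusted p = 0.000217). S100a1 fell by 1.55 on the log2 scale. Of 17 genes of mature oligodendrocytes tested 4 fell (23.5%). The tight-junction gene Cldn11 had 62 counts in NT and 2 in KO, a ratio of 36.4 (95% interval 9.66 to 307.2, counting error only), and Bcas1, Tspan2 and Sirt2 fell by 3.90, 1.23 and 0.35 on the log2 scale. The myelin genes Mbp and Mog were not called, with log2 fold changes of 0.25 and −0.45. Of the 11 calls in this lineage, 11 passed without NT library 1, 4 without NT library 2, and 11, 10 and 10 without KO libraries 1, 2 and 3. The 4 that passed in all of these fits were Sox10, Pdgfra, Cspg4 and Bcan.

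Of 24 astrocyte genes 0 rose and 7 fell (29.2%, list median −0.80), and 23 had a negative log2 fold change. Apoe, the lipid carrier that astrocytes secrete, stood at 396 and 619.9 CPM in NT and 208, 224 and 68.7 CPM in KO (log2 fold change −1.60 ± 0.41 SE, adjusted p = 0.0252). The groups were apart, and KO library 3 was the lowest by a wide margin. Agt, Ntsr2, Fgfr3 and Aldoc fell by 2.22, 1.81, 1.24 and 1.11 on the log2 scale, and the glutamate transporter gene Slc1a2, which neurons also express, by 0.50 (adjusted p = 0.026). The defining genes Gfap, Aqp4 and Slc1a3 were not called. Gfap stood at 176 and 91.6 CPM in NT and 169.6, 132 and 37.3 CPM in KO, with overlap. The summed level of the list was 3224 and 3400.4 CPM in NT and 2443, 2052 and 1395 CPM in KO.

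Of 32 genes of radial glia, the progenitors of the cortex, 4 fell (12.5%) and 0 rose (list median −0.76). The 4 were Sox3 (−1.77), the receptor gene Notch1 (−1.51), Id4 (−1.38) and Dbi (−0.88), with adjusted p from 0.00276 to 0.0418. Pax6, Sox2 and Sox1 were not called (−0.77, −0.75 and −0.10). Of 8 microglial genes tested Csf1r fell (−1.31, adjusted p = 0.0207), while Aif1 and Cx3cr1 were not called, and the list's median of −0.03 changed sign with pan-neuronal scaling and with length offsets. Of 17 fibroblast and vessel genes Rgs5, a pericyte gene, rose from 13.6 and 7.66 CPM in NT to 29.9, 26.9 and 43.9 CPM in KO (log2 fold change 1.65 ± 0.32 SE, adjusted p = 0.00558), and Col1a1, Col1a2 and Col3a1 were not called. Of 12 astrocyte, progenitor, microglial and vessel calls, 6 passed without NT library 1, 0 without NT library 2, and 9, 8 and 5 without KO libraries 1, 2 and 3.

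Genes of motile cilia had no lower call, and 6 of 41 rose (14.6%, list median 0.31). Erich3 (ENSMUSG00000078161.8, chr3:154663859-154767790, plus strand) stood at 2.80 and 2.06 CPM in NT and 17.1, 14.6 and 9.43 CPM in KO (log2 fold change 2.49 ± 0.29 SE, adjusted p = 0.000187), with no overlap. The others were the dynein heavy chains Dnah7a and Dnah2, the radial spoke gene Rsph4a, Cfap44 and Drc1, with log2 fold changes from 0.79 to 1.28 and adjusted p from 0.0118 to 0.0491. Foxj1, Mcidas and Gmnc, the factors that start the motile-cilia programme, were not called (−0.21, −0.59 and −0.06). Of these 6 calls, 3 passed without NT library 1, 1 without NT library 2, and 3, 4 and 3 without KO libraries 1, 2 and 3.

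**Figure D3:**
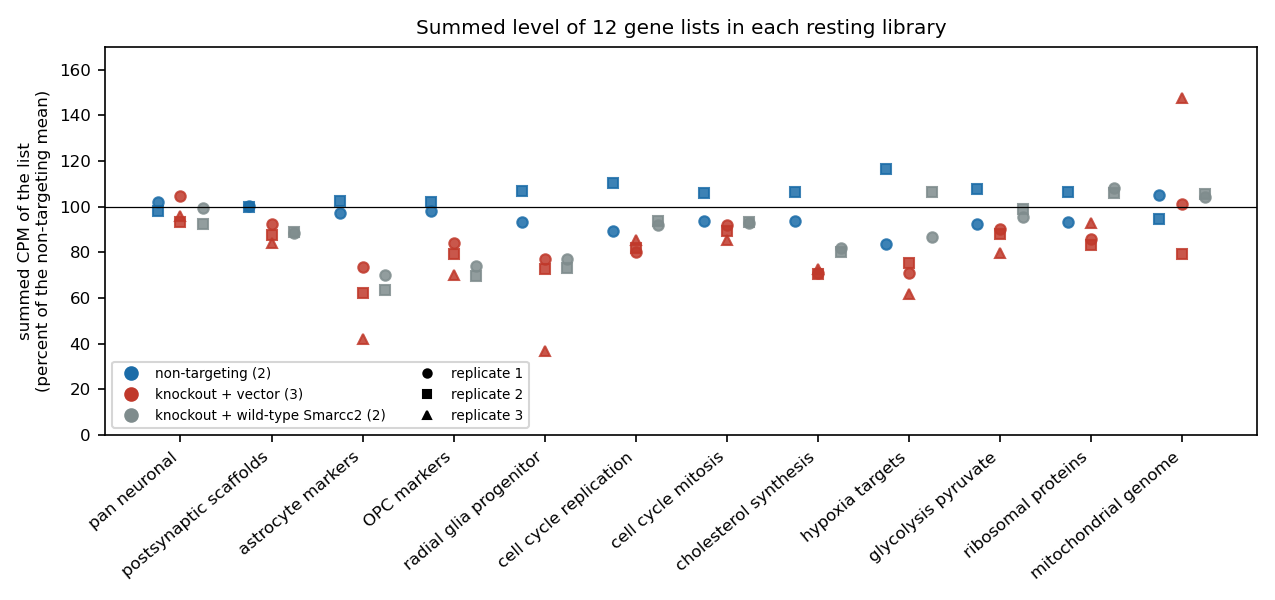
Summed level of 12 gene lists in each resting library, as percent of the mean of the 2 NT libraries (line at 100), with NT in blue, KO in red, knockout with wild-type Smarcc2 in grey and the shape giving the replicate number. Astrocyte and progenitor levels are below both NT libraries in each KO library and lowest in KO library 3, pan-neuronal levels overlap, and NT library 2 is the highest NT library for hypoxia targets and replication genes.

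Of 126 distinct replication and mitosis genes tested 18 fell (14.3%) and 0 rose, with a median log2 fold change of −0.48. Their levels were low throughout. Mki67 (ENSMUSG00000031004.8, chr7:135689784-135716361, minus strand), the marker of dividing cells, stood at 7.52 and 16.1 CPM in NT and 0.862, 0.317 and 1.53 CPM in KO (log2 fold change −3.73 ± 0.71 SE, adjusted p = 0.00511), and Top2a, the topoisomerase of dividing cells, at 5.52 and 9.50 CPM in NT and 0.592, 0.739 and 1.21 CPM in KO (log2 fold change −3.15 ± 0.74 SE, adjusted p = 0.0165). The groups did not overlap, and NT library 2 was the highest in both. Of 76 mitosis genes tested 10 fell (13.2%, list median −0.68), the 4 largest falls being Mki67, Bub1b, Cdk1 and Top2a. Bub1b, a spindle checkpoint kinase, stood at 0.212 and 1.38 CPM in NT and 0, 0.106 and 0.127 CPM in KO, and Cdk1, the mitotic kinase, at 0.850 and 1.33 CPM in NT and 0.054, 0.158 and 0.127 CPM in KO (adjusted p = 0.0412 and 0.0272). Without NT library 2 the log2 fold change of Mki67 was −3.08 and that of Bub1b −1.41, against −3.73 and −3.28.

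Of 50 replication genes 8 fell (16%, list median −0.35). Mcm3, a subunit of the replicative helicase, stood at 2.51 and 5.51 CPM in NT and 1.18, 1.06 and 1.08 CPM in KO (log2 fold change −1.85 ± 0.35 SE, adjusted p = 0.00533), and Rrm2, a ribonucleotide reductase subunit, at 2.68 and 5.19 CPM in NT and 0.862, 1.06 and 0.764 CPM in KO (log2 fold change −2.12 ± 0.45 SE, adjusted p = 0.0101). Uhrf1 (−1.52), Mcm5 (−1.33), Mcm6 (−0.82), E2f1 (−0.71), Mcm4 (−0.69) and Dnmt1 (−0.48) also fell. Without NT library 2 the log2 fold change of Mcm3 was −1.18. Of 23 genes that restrain or gate the cycle 0 rose, and Ccnd3, Cdkn1a, Rb1 and Ccnd2 fell by 0.70, 0.66, 0.65 and 0.31 on the log2 scale. Of the 16 named cell-cycle calls, 12 passed without NT library 1, 0 without NT library 2, and 6, 7 and 8 without KO libraries 1, 2 and 3. Summed over the list, mitosis genes stood at 779 and 882 CPM in NT and 763, 742 and 709.9 CPM in KO.

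Promoters of 4 of the fallen genes that hold a short element known from genes of their phase are shown, 2 from the mitosis list and 2 from the replication list. Sequences are those of RefSeq on GRCm38.p6, from 250 bases before to 50 bases after the annotated start, 5′ to 3′ on the gene's strand. Capitals mark the core of the cell-cycle genes homology region (CHR), TTTGAA on either strand, in the mitosis genes, and an E2F site, TTTGGCGC on either strand, in the replication genes. Positions count from the start site as 0.
Mki67 (chr7:135716330-135716629, minus strand): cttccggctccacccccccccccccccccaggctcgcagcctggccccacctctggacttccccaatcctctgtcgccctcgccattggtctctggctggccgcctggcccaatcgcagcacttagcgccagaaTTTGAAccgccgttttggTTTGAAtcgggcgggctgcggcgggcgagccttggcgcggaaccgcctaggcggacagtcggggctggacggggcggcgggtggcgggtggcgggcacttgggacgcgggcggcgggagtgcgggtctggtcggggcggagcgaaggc
Bub1b (chr2:118597961-118598260, plus strand): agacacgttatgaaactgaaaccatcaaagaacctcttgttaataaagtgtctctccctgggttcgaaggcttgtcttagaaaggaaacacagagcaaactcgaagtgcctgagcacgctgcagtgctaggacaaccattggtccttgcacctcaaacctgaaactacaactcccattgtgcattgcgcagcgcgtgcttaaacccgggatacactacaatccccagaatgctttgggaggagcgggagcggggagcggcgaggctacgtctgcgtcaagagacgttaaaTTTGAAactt
Mcm3 (chr1:20820263-20820562, minus strand): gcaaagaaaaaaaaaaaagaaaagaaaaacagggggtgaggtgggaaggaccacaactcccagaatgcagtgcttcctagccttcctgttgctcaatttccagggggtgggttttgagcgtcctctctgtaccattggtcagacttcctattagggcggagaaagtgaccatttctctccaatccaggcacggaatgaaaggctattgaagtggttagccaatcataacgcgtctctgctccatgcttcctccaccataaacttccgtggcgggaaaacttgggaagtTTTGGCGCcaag
Mcm5 (chr8:75109259-75109558, plus strand): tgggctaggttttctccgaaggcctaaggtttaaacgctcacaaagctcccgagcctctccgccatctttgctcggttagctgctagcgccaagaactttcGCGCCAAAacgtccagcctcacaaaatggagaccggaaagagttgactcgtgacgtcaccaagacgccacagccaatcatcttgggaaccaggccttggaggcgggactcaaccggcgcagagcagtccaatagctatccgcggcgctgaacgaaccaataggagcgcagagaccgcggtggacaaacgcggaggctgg
The CHR core began at −116 and −98 in Mki67 and at 40 in Bub1b. It lay in the windows of 8 of the 8 fallen mitosis genes with a RefSeq window, of 43 of 59 mitosis genes tested with a window, whether or not they fell, and of 17.9% of all 32851 windows. The E2F site began at 38 in Mcm3 and, on the opposite strand, at −149 in Mcm5. It lay in 3 of 7 fallen replication genes, in 7 of 40 replication genes tested with a window, and in 0.514% of all windows. A match describes letters and not binding.

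Sterol genes fell in 12 of 36 tested, with 0 rising (33.3%, list median −0.31). Large falls were in Apoe, described above, in Srebf1, which encodes a master regulator of lipid synthesis, and in Mvd of the mevalonate pathway. Mvd stood at 39.5 and 38.6 CPM in NT and 18.3, 21.2 and 27.4 CPM in KO (log2 fold change −0.81 ± 0.15 SE, adjusted p = 0.00478), and both NT libraries were above the 3 KO libraries. Srebf1 stood at 45.5 and 57.2 CPM in NT and 27.6, 27.5 and 14.8 CPM in KO (log2 fold change −1.13 ± 0.24 SE, adjusted p = 0.0105), with KO library 3 the lowest, as for the astrocyte genes. Mvk, of the same pathway, was not called (−0.17). The summed level of the list was 2974 and 3374 CPM in NT and 2247, 2236 and 2303 CPM in KO, and that of astrocyte markers, given above, was also lower in each KO library; its part in the sterol calls was not tested.

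Ribosomal protein genes fell in 9 of 77 (11.7%) and rose in 0, by small amounts (list median −0.20). The 4 largest falls were in Rps26 (−0.52), Rpl13 (−0.51), Rpl27 (−0.47) and Rpl18 (−0.46). These genes share reads with processed pseudogenes, so the authors' assignment could split their counts. Of 74 nuclear genes of oxidative phosphorylation Ndufb2 rose (0.52) and Ndufs7 fell (−0.42), which is 1.35% each. Of 13 genes of the mitochondrial genome 0 were called. Among chaperones and stress genes Hspa2 fell (−0.69) and Dnajb5 rose (0.26) of 30 (3.33% each). Of 30 genes of the unfolded protein response Nupr1 fell (−1.20) and Atf5 rose (0.57), also 3.33% each. Of 28 interferon-response genes H2-K1 fell (−0.95, 3.57%). Apart from the ribosomal list, with 11.7% lower, the shares in these lists were near or below those of all genes tested (2.13% higher and 3.77% lower). Of 14 named calls in the sterol, ribosomal and stress lists, 10 passed without NT library 1, 0 without NT library 2, and 8, 11 and 9 without KO libraries 1, 2 and 3.

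Glycolysis genes fell in 10 of 33 (30.3%) and rose in 1, and genes induced by hypoxia fell in 6 of 26 (23.1%) and rose in 0 (list medians −0.27 and −0.46). Slc2a1, the glucose transporter GLUT1, which is on both lists, stood at 58.0 and 108 CPM in NT and 32.4, 40.6 and 28.2 CPM in KO (log2 fold change −1.30 ± 0.24 SE, adjusted p = 0.0047). The lactate exporter gene Slc16a3 stood at 20.9 and 43.3 CPM in NT and 8.99, 13.0 and 6.05 CPM in KO (log2 fold change −1.77 ± 0.40 SE, adjusted p = 0.0149), and Egln3, an oxygen-sensing prolyl hydroxylase, at 5.14 and 18.2 CPM in NT and 2.85, 5.33 and 1.02 CPM in KO (log2 fold change −1.90 ± 0.53 SE, adjusted p = 0.0396). NT library 2 was the highest of the 5 libraries in all of these, and for Egln3 NT library 1 and KO library 2 overlapped. Without NT library 2 the log2 fold changes of Slc16a3 and Egln3 were −1.15 and −0.72. Pdk4, Ak4, Pfkl, Bnip3, P4ha1 and Ldha, which act in glucose use, mitochondrial turnover and collagen hydroxylation, fell by 1.46, 1.19, 1.18, 1.06, 0.80 and 0.63 on the log2 scale. Hk1, Slc2a3, Vegfa and Bnip3l were not called (−0.27, −0.21, −0.37 and −0.03). The summed level of the hypoxia list was 1351 and 1881 CPM in NT and 1149, 1219 and 999.6 CPM in KO, and 1401 and 1718 CPM in the cultures with wild-type Smarcc2.

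The promoters of Egln3 and Slc2a1, the hypoxia targets with the largest falls that hold the element, are given with the core of the hypoxia response element, ACGTG on either strand, in capitals. The same letters lie within CACGTG, the E-box of other factors.
Egln3 (chr12:54203825-54204124, minus strand): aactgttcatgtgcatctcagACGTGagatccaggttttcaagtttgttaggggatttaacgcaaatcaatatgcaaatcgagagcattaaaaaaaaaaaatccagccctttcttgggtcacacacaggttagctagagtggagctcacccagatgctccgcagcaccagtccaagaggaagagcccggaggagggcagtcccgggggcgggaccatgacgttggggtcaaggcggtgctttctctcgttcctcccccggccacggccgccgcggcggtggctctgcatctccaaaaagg
Slc2a1 (chr4:119108495-119108794, plus strand): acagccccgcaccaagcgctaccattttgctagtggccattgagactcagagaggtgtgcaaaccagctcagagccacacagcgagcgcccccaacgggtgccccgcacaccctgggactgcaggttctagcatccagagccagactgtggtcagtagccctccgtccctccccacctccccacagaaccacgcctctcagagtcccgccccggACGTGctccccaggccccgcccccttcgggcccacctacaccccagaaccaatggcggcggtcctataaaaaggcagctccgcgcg
The core began at −229 in Egln3 and at −36 in Slc2a1. It lay in the windows of 5 of the 6 fallen hypoxia targets, of 14 of 22 hypoxia targets tested with a window, and of 19.6% of all windows.

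Pgk1 (ENSMUSG00000062070.12, chrX:106187100-106203699, plus strand), which encodes the glycolytic enzyme phosphoglycerate kinase, was the only glycolysis gene to rise. It stood at 512 and 570.1 CPM in NT and 1292, 1269 and 1278 CPM in KO (log2 fold change 1.24 ± 0.11 SE, adjusted p = 5.24e-06), and the 3 KO libraries were nearly equal. Its level was 571 and 588 CPM in the cultures with wild-type Smarcc2. Over all 20 DIV18 libraries it ranged from 1269 to 1671 CPM in the 6 that carry the knockout with vector, at rest or under KCl, and from 403 to 665 CPM in the other 14, with no overlap. At least 99.98% of its counts in each of the 5 libraries fell on 1 protein-coding transcript. The sequence of the vector is not given in the sources used here, and its part in this result was not tested. Of the 10 named calls of the glycolysis and hypoxia lists, 9 passed without NT library 1, 1 without NT library 2, and 5, 10 and 6 without KO libraries 1, 2 and 3, and that of Pgk1 passed in all of these fits.

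Of 53 Wnt pathway genes 5 fell (9.43%) and 1 rose (1.89%), against 3.77% and 2.13% of all genes tested. Nkd2, an inhibitor of the pathway, stood at 6.80 and 8.26 CPM in NT and 0.916, 2.74 and 2.10 CPM in KO (log2 fold change −1.97 ± 0.38 SE, adjusted p = 0.00532), and the receptor gene Fzd8 at 4.46 and 6.61 CPM in NT and 1.99, 2.00 and 1.91 CPM in KO (log2 fold change −1.49 ± 0.28 SE, adjusted p = 0.0047). The groups were apart in both. The receptor gene Fzd9 (−1.15), the secreted antagonist gene Sfrp1 (−1.17) and Fzd3 (−0.25) also fell, and Axin2, a feedback target of the pathway, rose (0.52, adjusted p = 0.0314). Of 42 BMP and TGF-beta genes 3 fell (7.14%) and 0 rose. The ligand gene Bmp7 stood at 5.86 and 11.1 CPM in NT and 1.45, 1.74 and 1.08 CPM in KO (log2 fold change −2.55 ± 0.35 SE, adjusted p = 0.000533), and the receptor gene Tgfbr2 and the BMP target Id4 fell by 1.34 and 1.38 on the log2 scale.

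Of 49 growth factor and receptor tyrosine kinase genes 4 fell (8.16%) and 1 rose (2.04%). Fgf2 fell, at 12.3 and 12.3 CPM in NT and 6.09, 6.23 and 5.54 CPM in KO (log2 fold change −1.05 ± 0.18 SE, adjusted p = 0.00252). The other falls were in Erbb3 (−1.86), Fgfr3 (−1.24) and Fgf1 (−0.72). Alkal2, a ligand of the receptor ALK, rose from 0.170 and 0.413 CPM in NT to 2.32, 1.95 and 2.10 CPM in KO (log2 fold change 2.85 ± 0.47 SE, adjusted p = 0.00191). Of 34 Notch pathway genes Notch1 and Maml2 fell (−1.51 and −0.93, 5.88% of the list) and 1 rose (2.94%), near the shares of all genes tested. Dlk1, a non-canonical ligand, rose from 52.6 and 28.0 CPM in NT to 148, 171 and 105 CPM in KO (log2 fold change 1.81 ± 0.38 SE, adjusted p = 0.00952). Of 24 p53 targets Tnfrsf10b and Cdkn1a fell (−0.81 and −0.66, 8.33% of the list) and Ano3 rose (0.56, 4.17%), while Mdm2 and Bax were not called (0.11 and 0.00).

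Extracellular matrix genes fell in 12 of 87 (13.8%) and rose in 2, with a list median of −0.27. Astrocytes and oligodendrocyte precursors, whose markers were also lower in KO, express several of these genes, and their part was not tested. The largest falls were in the fibrillar collagen gene Col11a1, the syndecan gene Sdc1, the protease gene Mmp14 and Acan, the aggrecan of perineuronal nets. Sdc1 had a log2 fold change of −1.96, and −0.91 without NT library 2. Acan stood at 9.47 and 6.38 CPM in NT and 2.42, 3.38 and 2.80 CPM in KO (log2 fold change −1.46 ± 0.32 SE, adjusted p = 0.0117). Fras1 rose from 9.85 and 10.0 CPM in NT to 19.4, 17.5 and 17.8 CPM in KO (log2 fold change 0.88 ± 0.15 SE, adjusted p = 0.00232) and Thbs3, a thrombospondin, from 5.56 and 3.76 CPM in NT to 9.53, 9.65 and 9.30 CPM in KO (log2 fold change 1.02 ± 0.22 SE, adjusted p = 0.00951). In both, each KO library was above each NT library. Of 26 named calls of the signalling and matrix lists, 18 passed without NT library 1, 4 without NT library 2, and 17, 21 and 18 without KO libraries 1, 2 and 3.

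Over all genes, the 10 largest falls among coding and long noncoding genes above the level set for naming were in Sox10, Pdgfra, Bcas1, Mki67, Hist2h3c2, Top2a, Car14, H19, Hist1h2ah and Cspg4. All but Car14, a membrane carbonic anhydrase, and the imprinted noncoding RNA H19 are genes of the oligodendrocyte lineage or of dividing cells. The replication histones Hist2h3c2 and Hist1h2ah have near-identical copies, so their counts are uncertain. Car14 stood at 4.29 and 5.69 CPM in NT and 0.916, 0.950 and 0.191 CPM in KO (log2 fold change −2.82 ± 0.52 SE, adjusted p = 0.00442). The 10 largest rises were in Alkal2, Erich3, Npy2r, Tent5a, Npbwr1, Pnmt, Apol7a, Dlk1, Ccer2 and Rgs5, with log2 fold changes from 1.65 to 2.85. Npy2r and Npbwr1 are neuropeptide receptors, and Pnmt is the enzyme that makes adrenaline. Tent5a, a noncanonical poly(A) polymerase, stood at 1.36 and 0.551 CPM in NT and 5.60, 4.80 and 2.74 CPM in KO (log2 fold change 2.19 ± 0.42 SE, adjusted p = 0.00582), and Pnmt at 0.510 and 0.275 CPM in NT and 1.45, 2.32 and 0.637 CPM in KO (adjusted p = 0.0441). Of these 20, 14 passed without NT library 1, 6 without NT library 2, and 14, 14 and 18 without KO libraries 1, 2 and 3.

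The 84 genes whose call passed with all libraries and without each of them in turn were counted, and those named here picked, after their values were seen. All 57 that fell are protein coding, as are 768 of all 790 genes called lower. Beside Smarcc2 and the oligodendrocyte precursor genes named above, they include genes of neurons and of lipid metabolism. Tns1, a focal adhesion gene, stood at 34.5 and 47.2 CPM in NT and 13.9, 15.5 and 12.1 CPM in KO (log2 fold change −1.56 ± 0.17 SE, adjusted p = 9.92e-05), Scd1, the stearoyl-CoA desaturase, at 153 and 180.1 CPM in NT and 66.5, 71.2 and 42.3 CPM in KO (log2 fold change −1.47 ± 0.24 SE, adjusted p = 0.00178), and Fads1, a fatty acid desaturase, at 234 and 309 CPM in NT and 142, 156 and 120.0 CPM in KO (log2 fold change −0.96 ± 0.13 SE, adjusted p = 0.000437). In each the groups did not overlap. The mitochondrial glutamate carrier gene Slc25a22 (−0.60), the phosphodiesterase gene Pde2a (−0.63), the vesicle gene Syngr1 (−0.43) and Shank3, Hcn2 and Grin1 are also among them. Of the 27 that rose, 12 are processed pseudogenes and 15 are not. The latter include Pgk1, Erich3, Lrrtm4, Syt10, Alkal2, the cation channel gene Trpc4 (0.73), Mycl (1.14) and Mn1, a transcriptional cofactor, at 140.0 and 118 CPM in NT and 251, 242 and 241 CPM in KO (log2 fold change 0.92 ± 0.12 SE, adjusted p = 0.000437).

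The same contrast was measured under KCl in 5 further libraries that share none with the comparison at rest. The labels do not say whether resting and depolarized libraries came from the same embryos, and both contrasts come from the same fit. There 152 genes were called higher (0.726% of those tested) and 408 lower (1.95%). Of the 446 genes that rose at rest 72 also rose under KCl, and of the 790 that fell 169 also fell. Those 241 genes are 19.5% of the calls at rest. Of the 84 calls that passed without each library, 61 were also called under KCl in the same direction. The test of the difference between states called 0 genes with edgeR, with 1845 at an unadjusted p under 0.05, and 7 with DESeq2.

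The list medians under KCl and at rest are set side by side. For astrocyte, oligodendrocyte precursor and progenitor genes the median log2 fold change was −1.23, −0.93 and −0.67 under KCl, against −0.80, −1.15 and −0.76 at rest. For mitosis and replication genes it was −0.15 and 0.02, against −0.68 and −0.35, with 1 of 126 called lower. For hypoxia targets it was 0.21, against −0.46, and 17 of the 26 had an unadjusted p under 0.05 in the test of the difference. Over the 680 neuronal genes 12 rose and 48 fell under KCl, with a median of −0.11, against 54, 39 and 0.06 at rest, and for interneuron genes the median was −0.60, against 0.23. Postsynaptic scaffolds had 7 calls lower under KCl as well, 5 of them in genes that also fell at rest. Shank3 stood at 297 and 283 CPM in NT and 203, 206 and 206 CPM in KO under KCl (log2 fold change −0.50, adjusted p = 0.0027). Pdgfra had only 1 high NT library there, at 1.42 and 13.5 CPM in NT and 0.870, 0.534 and 0.782 CPM in KO (−3.33, adjusted p = 0.0277). Cspg4 overlapped between the groups under KCl and was not called, at 3.84 and 8.38 CPM in NT and 3.74, 4.92 and 3.58 CPM in KO (−0.58, adjusted p = 0.476). Sox10 was not called under KCl either (−2.86, adjusted p = 0.0994). Of 21 oligodendrocyte precursor genes 7 fell under KCl, 3 of them also at rest.

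**Figure D4:**
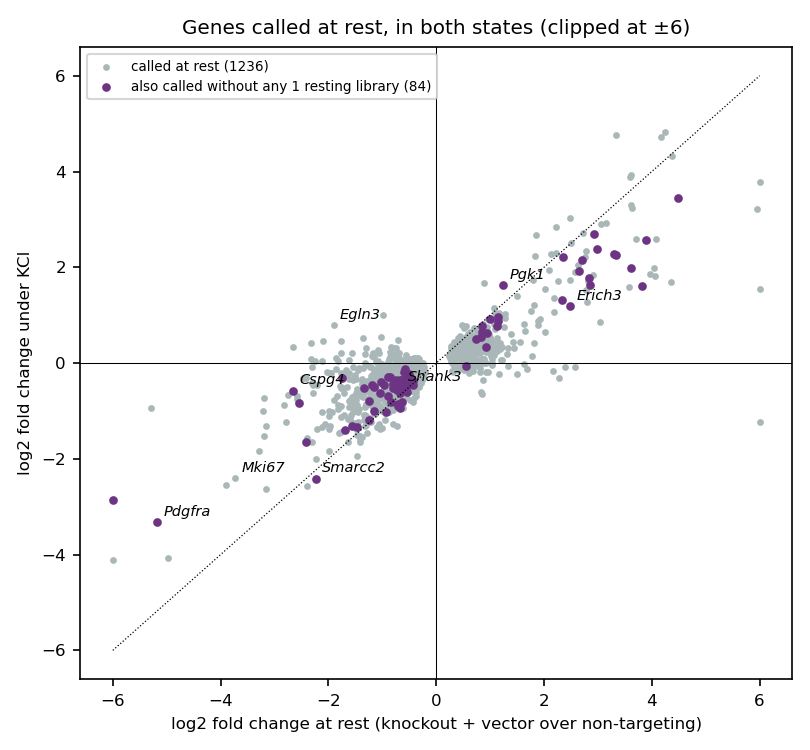
Log2 fold change of KO over NT at rest (x axis) and under KCl (y axis) for the 1236 genes called at rest (grey) and the 84 of them also called without each resting library in turn (purple), clipped at 6 either way, with a dotted line of equality. The 2 axes share no library; Smarcc2, Pgk1 and Pdgfra lie in the same direction in both states, while Egln3 is lower at rest and has a positive value under KCl.

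In the resting cultures of the same knockout with wild-type Smarcc2, Smarcc2 stood at 816 and 756 CPM, above its NT level. Fold changes against these libraries would share the KO or NT libraries with the comparison above, so only levels are given. Among neuronal genes Grin1 stood at 577 and 572 CPM, between the KO and NT libraries, while Shank3, at 209.8 and 248 CPM, had 1 library at the level of the KO group. Erich3 stood at 5.88 and 3.42 CPM and Mn1 at 169.5 and 169.8 CPM, also between the groups. Pdgfra, at 2.13 and 1.76 CPM, and Cspg4, at 5.50 and 4.70 CPM, were above each KO library and below each NT library. The oligodendrocyte precursor list as a whole summed to 747 and 704 CPM, against 989 and 1028 CPM in NT and 849, 798 and 706 CPM in KO. The astrocyte list summed to 2324 and 2097 CPM and the mitosis list to 771 and 774 CPM, both below the 2 NT libraries. The cholesterol list summed to 2597 and 2537 CPM, between the KO and NT libraries. The postsynaptic scaffold list summed to 9421 and 9455 CPM with wild-type Smarcc2, within the range of the KO libraries. It stood at 10686 and 10619 CPM in NT and 9866, 9310 and 8944 CPM in KO.

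Gene properties also moved with the contrast. With the genes cut into 5 bins of equal size by GC content, 7.57% fell in the bin of highest GC content and 1.19% in the lowest, and the median log2 fold change went from 0.14 in the lowest to −0.10 in the highest bin. With offsets for GC content these medians were 0.12 and −0.01. The genes that fell had a median GC content of 53.9%, those that rose 48.7%, and all genes tested 49.4%. Of 618 processed pseudogenes tested 46 rose (7.44%) and 3 fell. Pseudogenes share sequence with their parent genes, so the authors' assignment of reads between them is uncertain. These transcripts made up 0.48% to 0.528% of the counts of the 5 libraries, and the part of read assignment in their rise was not tested.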

How the data were processed

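RNA-seq of ribosomal-RNA-depleted total RNA was measured in 24 libraries, of which 20 are at DIV18 and 5 make up the comparison. The authors deposited estimated counts, TPM and effective lengths per transcript and library, per the file headers, and FastQC, cutadapt and kallisto are named in the submitters' processing notes, with no versions. The genome build is not given in the sources used here. Transcript identifiers were matched to GENCODE M21 on GRCm38 (99.2% of 142552), and the 1123 unmatched held at most 0.441% of a library's counts. Estimated counts, which kallisto shares out among similar transcripts, were summed over 55177 genes and rounded.

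Groups came from sample titles. Genes were tested with edgeR 4.0.16 (R 4.3.3) in a quasi-likelihood fit of the 20 DIV18 libraries in 8 groups (filterByExpr, TMM, no covariate, 20940 genes tested, 12 residual degrees of freedom, biological coefficient of variation 14.6%). Tests were two-sided with Benjamini-Hochberg adjustment over all genes and a threshold of 0.05. CPM came from counts and TMM-scaled library sizes. The procedure was tested on simulated data in which 200 genes were changed at least 2-fold, with no library set apart from its group. It recovered 60.5% of them, and 3.2% of its calls were false. Of the calls in the real data 29.1% were of at least 2-fold, so these rates do not cover the smaller changes. A gene not called is not shown to be unchanged. Libraries of 15882404 to 23835270 counts limit the precision of genes below about 1 CPM. Folds against 0 counts used a floor of 3 counts over the group, and intervals are 95% and cover counting error only.

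Members, gene lists and naming rule were chosen with earlier results of these data known. Named were the called members of each list (where over 8 were called, the 4 largest rises and falls), the first 3 markers of a list, and the 10 largest rises and falls over all genes with a mean of at least 1 CPM and no overlap between groups. Some genes that this rule picks are not reported here. No set test was run, and the cultures with wild-type Smarcc2 were given no test. Alternatives were DESeq2 1.42.0, other scalings and filters, GC and length offsets, fewer libraries, a replicate block and each library left out.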

Additional observations from a re-analysis of the deposited data

How the results depend on the processing

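Of 174 named genes none reversed direction in the fits where it could be compared, while counts of calls moved. DESeq2 gave an adjusted p for 167 of them, and none for Sox10, Gpr17, Cldn11, Bub1b, Cdk1, H19 and Hist1h2ah. The stricter filter on low counts left out Sox10, Gpr17, Cldn11, Bcas1, Bub1b, Cdk1 and Hist1h2ah. Against 1236 calls, separate fits gave 680 with length offsets (234 higher, 446 lower, 611 shared with the 1236), 2016 with no filter on low counts (726 and 1290, 1067 shared) and 225 with only the 5 libraries (79 and 146, 219 shared), and 459 calls were lower with pan-neuronal scaling. Length offsets also moved the log2 fold changes of Notch1 to −0.48, Uhrf1 to −0.66, Cdk1 to −1.97, Top2a to −2.48, Bcas1 to −3.01, H19 to −1.80, Dnah2 to 0.18 and Dnah7a to 0.39. Neuronal list members called higher (54) were 29, 82 and 13 with length offsets, no filter and the 5 libraries, and those lower (39) were 70 and 6 with the last 2 of these. With GC offsets 55 neuronal list members were higher and 28 lower, and with pan-neuronal scaling 68 and 26. Glial markers called lower (19) were 33 with no filter and 9 with the 5 libraries. Replication and mitosis genes called lower (18) were 9 with length offsets, 11 with the 10 resting libraries, 3 with the 5 libraries and 11 with pan-neuronal scaling. The difference between states was called in 7 genes by DESeq2 and in 448 with no filter, against 0, and 0 to 1 with a library left out. The cause of these moves was not tested, except that the fits of 5 and 10 libraries use fewer samples.

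With each library left out in turn, calls ranged from 100 to 1031 (higher 31 to 391, lower 69 to 640), glial markers lower from 4 to 19, replication and mitosis genes lower from 0 to 19, and neuronal genes higher from 2 to 51 and lower from 5 to 35. The lowest values were all without NT library 2. Of the 174 genes 157 lost their call in that fit. The count of 84 genes called in every such fit is an alternative chosen after seeing the data. With the replicate number as a block, 685 genes were called higher and 83 neuronal genes higher. Deviations of the 2 same-numbered pairs correlated at 0.126 and 0.215, and the labels do not say that a number marks a shared litter or day, so pairing is not established.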

Other observations

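Outside the gene lists, several genes differed between KO and NT at rest and passed without each of the 5 libraries in turn, and those named here were chosen after their values were seen. Pcx, the pyruvate carboxylase that replenishes the citric acid cycle, stood at 119.8 and 155 CPM in NT and 54.8, 70.6 and 53.7 CPM in KO (log2 fold change −1.20 ± 0.18 SE, adjusted p = 0.00111, edgeR quasi-likelihood test). The proteolipid gene Gpm6b and the chloride channel gene Ttyh3 were abundant and fell by 0.65 and 0.65 on the log2 scale. Other lipid genes in this set were Acsl3, Agpat5 and Chpt1, which act in fatty acid activation and phospholipid synthesis and fell by 0.53, 0.58 and 0.51. Icosl, a costimulatory ligand of T cells, stood at 9.60 and 9.22 CPM in NT and 0.862, 1.95 and 2.48 CPM in KO (log2 fold change −2.42 ± 0.33 SE, adjusted p = 0.000533), and the focal adhesion adaptor gene Pxn fell by 1.33, beside Tns1 of the same structures. Ciart, a repressor of the circadian clock, rose by 0.86. The libraries with wild-type Smarcc2 stood at 87.7 and 123 CPM for Pcx, 5.27 and 4.89 CPM for Icosl and 18.9 and 18.8 CPM for Ciart.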
